A study of Mus musculus with 30 samples.

Results

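The genes examined encode core scaffold proteins of the postsynaptic density and the main brain subunits of the kinase CaMKII. They were chosen by name, as the table entries Dlg4, Shank1, Shank2, Shank3, Dlgap1, Dlgap2, Dlgap3, Camk2a and Camk2b, and all 9 were found among the 23303 entries of the deposited expression table. RNA was sequenced from amygdala punches and trunk blood of male C57BL/6J mice aged 2 to 3 months. For each library the punches or the blood of 2 animals of a group were pooled. The home cage group (HC) was handled only. The FC group received auditory fear conditioning, in which a tone is paired with a foot-shock, and was killed 2 h later. The Immo+FC group had a single 2 h immobilization 1 week before the same conditioning. No group had immobilization alone, so a difference between Immo+FC and FC is one between conditioned mice with and without earlier immobilization. Amygdala libraries numbered 6 HC, 6 FC and 4 Immo+FC, and blood libraries 4 HC, 5 FC and 5 Immo+FC. The punches were centred on the basolateral amygdala and may have taken in neighbouring regions, and in such bulk tissue fewer cells of a type and less RNA per cell cannot be told apart.

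The postsynaptic density is the protein layer under the membrane of excitatory synapses that holds glutamate receptors in place. Dlg4 encodes PSD-95, which binds the tails of NMDA receptors and, through auxiliary subunits, anchors AMPA receptors. The Dlgap genes encode adaptor proteins (GKAP or SAPAP) that link PSD-95 to the SHANK proteins, and the SHANK proteins in turn bind Homer and the actin cytoskeleton. Camk2a and Camk2b encode the alpha and beta subunits of CaMKII, a kinase that calcium-bound calmodulin switches on and that is required for long-term potentiation and for the formation of fear memory. Camk2a RNA is among the transcripts carried into dendrites and translated there.

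RefSeq promoters on GRCm38.p6 were matched for 5 of the 9 genes. Promoter windows of 250 bases before a transcript start are shown for an adaptor, a SHANK and a kinase subunit, to set the regulatory sequence of these families side by side. Capitals mark the GC box GGGCGG, searched on both strands with overlapping sites counted.
Shank3 (chr15:89499358-89499607, plus strand): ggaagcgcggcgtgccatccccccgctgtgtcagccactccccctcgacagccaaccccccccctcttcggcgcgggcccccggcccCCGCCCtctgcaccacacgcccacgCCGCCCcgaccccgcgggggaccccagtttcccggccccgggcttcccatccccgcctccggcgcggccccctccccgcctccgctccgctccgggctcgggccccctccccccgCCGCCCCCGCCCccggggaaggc
Camk2b (chr11:6065749-6065998, minus strand): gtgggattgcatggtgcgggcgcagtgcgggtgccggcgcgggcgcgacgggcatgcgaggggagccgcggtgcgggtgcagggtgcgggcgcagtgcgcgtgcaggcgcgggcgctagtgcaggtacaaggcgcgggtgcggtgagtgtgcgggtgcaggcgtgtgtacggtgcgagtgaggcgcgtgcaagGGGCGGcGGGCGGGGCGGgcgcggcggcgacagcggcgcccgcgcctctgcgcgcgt
Dlgap3 (chr4:127172630-127172879, plus strand): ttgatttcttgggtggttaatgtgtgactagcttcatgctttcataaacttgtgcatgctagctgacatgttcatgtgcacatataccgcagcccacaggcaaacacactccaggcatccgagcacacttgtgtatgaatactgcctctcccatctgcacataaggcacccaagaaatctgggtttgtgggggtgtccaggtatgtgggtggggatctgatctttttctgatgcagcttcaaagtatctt
The Shank3 window lies outside the annotated transcripts, holds 4 GC boxes and has a GC content of 82.4%. The Camk2b window overlaps a Camk2b transcript but none of its exons, holds 3 GC boxes and has a GC content of 78.4%. The Dlgap3 window, which overlaps an intron of a longer Dlgap3 transcript, holds none and has a GC content of 46.8%. Of all 32851 promoter windows, 32.7% hold a GC box, and the median GC content is 52.4%. The EGR letters GCGGGGGCG, found in 2.57% of windows, were present in the Shank3 window, on the minus strand and overlapping its last pair of GC boxes, and in neither of the other two. The CRE letters TGACG, which 17.8% of windows hold, and the letters TATAAA, which 12.4% hold, were in none of these 3 windows. Among the matched windows not shown, a Dlg4 window starting at base 70023732 held 1 TGACG and 1 GC box. The other Dlg4 windows and those of Dlgap1 held neither. A letter match is a description of the window and not a bound site.

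Expression is given in FPKM, fragment numbers scaled to transcript length and library depth, so levels can be set side by side between genes. Amygdala libraries held 23148078 to 31366290 sequences and blood libraries 9081977 to 25892322. The summed level of 11 pan-neuronal markers was 2960 to 3546 FPKM in amygdala, and markers of excitatory and inhibitory neurons were both present. Markers of striatal neurons, from the region beside the amygdala, summed to between 188 and 605 FPKM in the amygdala libraries, and choroid plexus markers to between 2.75 and 1056 FPKM, with wide ranges in every group. Genes with a longest transcript over 10 kb also separated the libraries. Their score, the mean log2 level relative to the mean over libraries, was -0.32 to -0.09 in all 6 FC libraries, -0.18 and -0.13 in HC libraries 1 and 2 and -0.22 in Immo+FC library 1, against 0.21 to 0.26 in the other 7 libraries. None of the 9 genes is in this score, since their longest transcripts run from 4125 bases (Camk2b) to 9826 bases (Shank1).

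By the GENCODE vM21 annotation of GRCm38, Dlg4 (70016942 to 70047522, plus strand) and Camk2b (5969644 to 6066362, minus strand) lie on chromosome 11, Shank1 (44310253 to 44360572) and Shank2 (144001928 to 144424494) on chromosome 7, Shank3 (89499623 to 89560261) on chromosome 15, Dlgap1 (69969073 to 70821413) on chromosome 17 and Dlgap3 (127169204 to 127237022) on chromosome 4, the last 5 on the plus strand. All 9 genes were expressed in every amygdala library, across a range from 8.11 FPKM for Dlgap2 to 666 FPKM for Camk2a. Camk2a, with a mean of 566 FPKM over the 16 libraries, ranked 25th of all entries. Dlg4 followed at 167 FPKM and Camk2b at 164 FPKM, and these neighbours did not differ beyond their spread, with Dlg4 the higher in 11 of 16 libraries. Dlgap1 averaged 83.5 FPKM and Dlgap3 64.9 FPKM, with overlapping ranges and Dlgap1 higher in 15 of 16 libraries. Shank1 came next at 44.4 FPKM. Shank2 at 26.8 FPKM and Shank3 at 22.99 FPKM had overlapping ranges, with Shank2 higher in 15 of 16 libraries, and Dlgap2 was lowest at 11.5 FPKM. The other 5 pairs of neighbours in this order had ranges that did not overlap. The families were unequal in level, with the PSD-95 transcript above every adaptor and every adaptor but Dlgap2 above every SHANK.

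**Figure D1:**
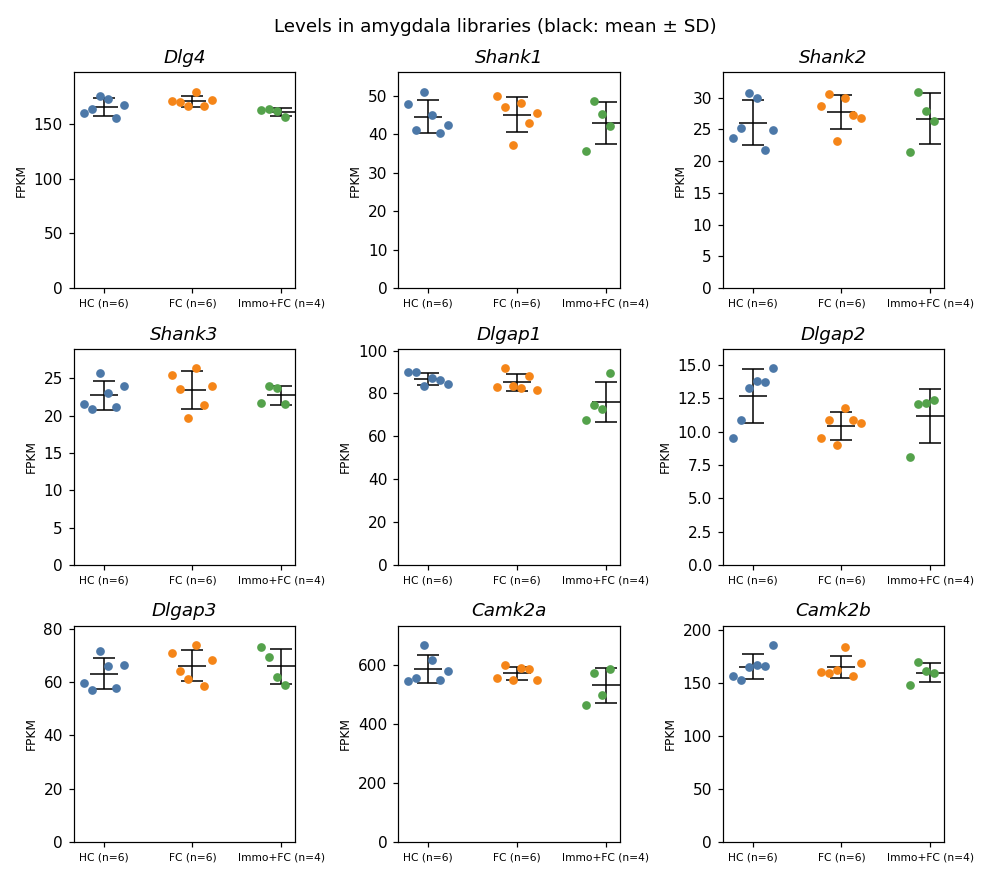
Levels of the 9 genes in amygdala on linear axes that start at 0, in FPKM, with 1 point per library of 2 pooled mice for 6 HC, 6 FC and 4 Immo+FC libraries, and black bars for the mean ± SD. The groups lie at like levels for most genes, Dlgap2 is lower in FC than in 4 of the 6 HC libraries, and 3 of 4 Immo+FC libraries have Dlgap1 between 67.6 and 74.6 FPKM.

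None of the 9 genes passed an adjusted p of 0.05 in any of the 3 amygdala comparisons, in limma's fit over 13508 genes. In FC against HC, 0 of 9 passed, where 0.0148% of all genes did, and 1 of 9 had an unadjusted p under 0.05, where 13.1% of all genes did. In Immo+FC against FC, 0 of 9 passed, against 0.0222% of all genes, and 2 of 9 had an unadjusted p under 0.05, against 10.4%. In Immo+FC against HC, 0 of 9 passed, against 0.2% of all genes, and 2 of 9 had an unadjusted p under 0.05, against 13.1%. The 3 comparisons share the groups and are not independent. The median size of the log2 difference was 0.04, 0.08 and 0.06 for the 9 genes in these comparisons and 0.07, 0.07 and 0.08 for all genes tested. Over the 9 genes, the lowest and the highest bound of the 95% intervals came from different genes in each comparison. These bounds were a fall of 29.9% and a rise of 23.2% for FC against HC. For Immo+FC against FC they were a fall of 18.5% and a rise of 28.3%. The bounds for Immo+FC against HC were a fall of 27.2% and a rise of 19.8%. In Immo+FC against FC, 8 of the 9 genes had a log2 difference below 0, and 7 did under median-ratio or quantile scaling. Their median was -0.06, beside -0.02 for all genes. The pan-neuronal markers also lay low in this comparison, with a median of -0.08 and 4 of 11 lower at an unadjusted p under 0.05. With the pan-neuronal score as a covariate, 5 of the 9 were below 0, Dlg4 was at -0.07 (adjusted p = 0.531 in limma) and Dlgap1 at -0.11 (adjusted p = 0.512). With the score of long transcripts as a covariate instead, all 9 were below 0. Markers of excitatory neurons had a median of 0.02 in this comparison, and those of inhibitory neurons one of -0.08. The part of neuronal content in this pattern was not tested.

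Dlg4, the PSD-95 transcript, was among the steadiest genes in the amygdala. Its lowest, median and highest levels were 155, 165 and 176 FPKM in HC and 166, 171 and 179.8 FPKM in FC, and the Immo+FC libraries were at 163, 164, 162 and 156 FPKM. The means were 166 ± 7.88 (SD, n = 6), 171 ± 4.93 (SD, n = 6) and 161 ± 3.48 (SD, n = 4) FPKM. All 4 Immo+FC libraries lay below all 6 FC libraries, the one case among the 9 genes in which groups did not overlap. Of all genes, 2.28% did not overlap in this comparison, 1.38% with the lower values in Immo+FC, and the share was 1.39% in FC against HC and 2.57% in Immo+FC against HC. The difference was small, at a log2 of -0.08 (SE 0.04, 95% interval -0.17 to -0.0013), and did not pass (limma, adjusted p = 0.471). FC against HC gave 0.05 (SE 0.04, adjusted p = 0.622) and the groups overlapped. Only 2.25% of all genes tested had a smaller spread within groups than the 0.05 log2 units of Dlg4.

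Dlgap1, the most abundant of the adaptors, had lower values in most Immo+FC libraries. In HC it was at 83.3, 86.7 and 90.1 FPKM (lowest, median, highest) and in FC at 81.6, 83.4 and 91.7 FPKM. The Immo+FC libraries were at 67.6, 74.6, 72.9 and 89.5 FPKM. Immo+FC libraries 1 to 3 lay below every HC and FC library, and library 4 lay within their range. The mean was 86.8 ± 2.82 FPKM in HC (SD, n = 6), 85.1 ± 3.93 FPKM in FC (SD, n = 6) and 76.2 ± 9.40 FPKM in Immo+FC (SD, n = 4). Immo+FC against HC gave a log2 difference of -0.20 (SE 0.06, 95% interval -0.32 to -0.07), which did not pass over all genes (limma, adjusted p = 0.178). Immo+FC against FC gave -0.17 (SE 0.06, adjusted p = 0.344). The result turned on which Immo+FC libraries were used. Without Immo+FC library 4 the difference from HC was -0.28 with an adjusted p of 0.0234, and without Immo+FC libraries 1 and 2 it was -0.10 with an adjusted p of 0.805. Leaving out library 4 also raised the calls over all genes in Immo+FC against HC from 27 to 148. For Dlgap1, FC against HC was -0.03 (SE 0.05, adjusted p = 0.869).

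Dlgap2, the least abundant adaptor, varied most, and its spread within groups of 0.22 log2 units was larger than that of 82.8% of all genes. It was at 9.51, 13.5 and 14.8 FPKM in HC (lowest, median, highest), at 8.97, 10.8 and 11.8 FPKM in FC, with 8.11, 12.1, 12.2 and 12.4 FPKM in the Immo+FC libraries. HC libraries 1 and 2, at 9.51 and 10.9 FPKM, lay among the FC values, Immo+FC library 1 lay below all of them, and the other 4 HC libraries were at 13.3 to 14.8 FPKM. FC against HC gave a log2 difference of -0.26 (SE 0.12, 95% interval -0.51 to -0.02), which did not pass (limma, adjusted p = 0.341). This split of libraries is the one that the score of long transcripts drew, although the longest Dlgap2 transcript has only 4503 bases. With that score as a covariate the difference turned to 0.08 (SE 0.06, adjusted p = 0.529), and without HC libraries 1 and 2 it was -0.41 (SE 0.11, adjusted p = 0.0548). All FC libraries had a low score, so the score and the FC group cannot be fully told apart.

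**Figure D2:**
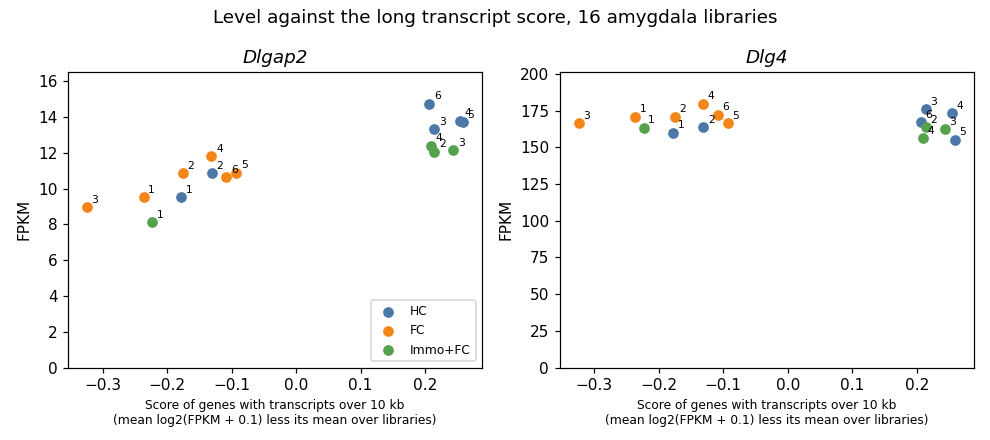
Level in FPKM (vertical axes, from 0) of Dlgap2 and Dlg4 against the score of genes with transcripts over 10 kb (horizontal axes, in log2 units relative to the mean over libraries), with 1 point per amygdala library, coloured by group and marked with its library number. Dlgap2 is at 8.11 to 11.8 FPKM in the 9 libraries with a score under 0 and at 12.1 to 14.8 FPKM in the other 7, whereas Dlg4 has overlapping values on both sides.

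Dlgap3, an adaptor that the striatum also expresses strongly, did not separate the groups. Its lowest, median and highest levels were 57.0, 62.9 and 71.5 FPKM in HC and 58.4, 66.3 and 73.8 FPKM in FC, with 73.2, 69.4, 61.8 and 58.8 FPKM in the Immo+FC libraries. The groups overlapped throughout, and the adjusted p-values in limma were 0.745, 0.987 and 0.797 for FC against HC, Immo+FC against FC and Immo+FC against HC. Within a library, the Dlgap3 to Dlgap1 ratio was 0.729 ± 0.0876 in HC, 0.779 ± 0.0937 in FC, and 0.880 ± 0.178 for Immo+FC (SD, n = 6, 6 and 4). In Immo+FC against HC this log2 ratio differed by 0.26, which an exact two-sided permutation test did not separate from the spread (p = 0.129, adjusted over 9 ratio tests 0.621, smallest possible p 0.00476).

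The SHANK genes, which encode the scaffolds of the deeper layer of the density, were at like levels in all groups. Shank1 was at 40.3, 43.7 and 51.2 FPKM in HC (lowest, median, highest), at 37.2, 46.3 and 49.9 FPKM in FC, with 35.7, 48.6, 45.3 and 42.2 FPKM in the Immo+FC libraries. Shank2 was at 21.8, 25.1 and 30.8 FPKM in HC, at 23.2, 28.0 and 30.7 FPKM in FC, with 21.4, 31.0, 27.9 and 26.4 FPKM in Immo+FC. Shank3, whose loss causes Phelan-McDermid syndrome in people, was at 20.9, 22.3 and 25.7 FPKM in HC, at 19.6, 23.8 and 26.3 FPKM in FC, with 21.7, 23.9, 23.8 and 21.5 FPKM in Immo+FC. Every group overlapped every other for all 3 genes. FC against HC differed by a log2 of 0.01 for Shank1 (95% interval -0.16 to 0.19), 0.10 for Shank2 (-0.11 to 0.30) and 0.04 for Shank3 (-0.11 to 0.19), and Immo+FC against FC by -0.08, -0.06 and -0.04, with adjusted p-values in limma of 0.723 to 0.965. Those of Immo+FC against HC were 0.826, 0.928 and 0.987. The Shank3 to Shank1 ratio within libraries was 0.510 ± 0.0383 in HC, 0.519 ± 0.0182 in FC, and 0.534 ± 0.0519 for Immo+FC (SD, n = 6, 6 and 4), with exact permutation p-values of 0.414 to 0.636 and adjusted values of 0.621 to 0.656.

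Camk2a, the gene of the alpha subunit, was at 546, 567 and 666 FPKM in HC (lowest, median, highest), at 548, 570.4 and 598 FPKM in FC, with 464, 571, 498 and 587 FPKM in the Immo+FC libraries. Immo+FC libraries 1 and 3 were below every HC and FC library, and the other 2 were within their range. FC against HC differed by a log2 of -0.03 (95% interval -0.16 to 0.10, adjusted p = 0.869). Immo+FC against HC differed by -0.15 (SE 0.07, 95% interval -0.29 to -0.0013), which did not pass (limma, adjusted p = 0.378), and without Immo+FC library 1 the difference was -0.08. Camk2b, the gene of the beta subunit, which ties the kinase to actin, was at 153, 165 and 186 FPKM in HC, at 156, 161 and 184 FPKM in FC, with 148, 169.7, 161 and 159.8 FPKM in Immo+FC. Its groups overlapped in every comparison. FC against HC differed by -0.0025 (95% interval -0.11 to 0.11, adjusted p = 0.993). The Camk2a to Camk2b ratio was 3.55 ± 0.325 in HC, 3.47 ± 0.242 in FC, and 3.32 ± 0.266 for Immo+FC (SD, n = 6, 6 and 4). Exact two-sided permutation tests of this ratio gave p = 0.656, 0.357 and 0.281 for FC against HC, Immo+FC against FC and Immo+FC against HC, with adjusted values of 0.656, 0.621 and 0.621.

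**Figure D3:**
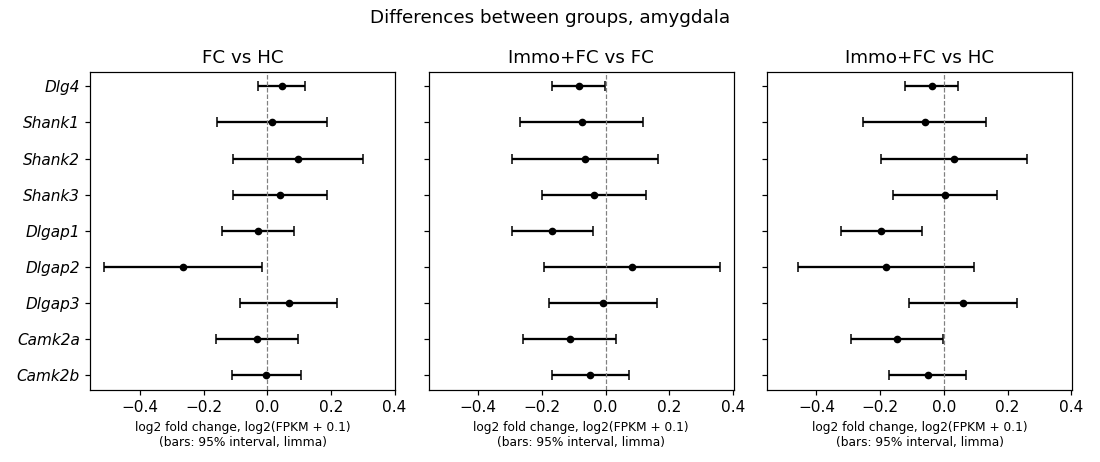
Differences between groups in amygdala for each gene, as log2 fold changes on the log2(FPKM + 0.1) scale with 95% intervals from limma, for FC against HC, Immo+FC against FC and Immo+FC against HC. The intervals that leave out 0, before any adjustment, are those of Dlgap2 in FC against HC, Dlg4 and Dlgap1 in Immo+FC against FC, and Dlgap1 and Camk2a in Immo+FC against HC.

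Among the libraries, some of these genes varied together. After the group mean was removed, the correlation over the 16 amygdala libraries was highest between Shank1 and Shank2 (Pearson's r = 0.83) and between Dlg4 and Dlgap3 (0.82), and was 0.78 between Shank2 and Camk2a. Shank3 followed Shank1 and Dlgap3 (both 0.77) and Dlg4 (0.76). Dlgap1 had r = -0.65 to Dlgap3, -0.43 to Dlg4, 0.47 to Camk2a and 0.23 to Dlgap2, and Dlgap2 went with Camk2b (0.73). These values are descriptions over libraries that share a punch, a depth and a normalization, and the libraries differed in their striatal and choroid plexus markers, whose part in them was not tested. Among the 12346 genes averaging 1 FPKM or more, those most like each gene in these deviations were Hsf1 for Dlg4 (r = 0.89), Sec24c for Shank1 (0.95), Wwc1 for Shank2 (0.93), Ttbk1 for Shank3 (0.92), Wac for Dlgap1 (0.94), Rfx7 for Dlgap2 (0.97), Srrm3 for Dlgap3 (0.95), Prickle2 for Camk2a (0.92) and Kcnh1 for Camk2b (0.93). Each is the top of many genes searched.

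**Figure D4:**
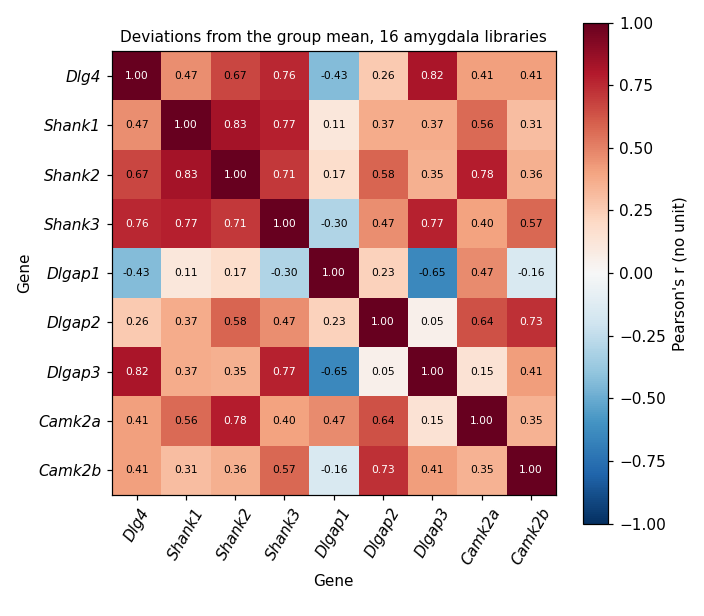
Pearson's r between each pair of the 9 genes, computed on deviations of log2 levels from the group mean over 16 amygdala libraries, on a colour scale from -1 to 1 with no unit. The highest values are those of Shank1 with Shank2 (0.83) and Dlg4 with Dlgap3 (0.82), and the lowest is that of Dlgap1 with Dlgap3 (-0.65).

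Other genes of the postsynaptic density did not pass in the fit over all libraries with equal weights. Of 26 partner genes, among them the other Dlg genes, Homer genes, neuroligins and AMPA receptor auxiliary subunits, 0 passed in any of the 3 comparisons (limma), and an unadjusted p under 0.05 was found for 3 higher and 3 lower genes in FC against HC, 2 and 2 in Immo+FC against FC, and 2 and 3 in Immo+FC against HC. Over all genes tested, the shares with an unadjusted p under 0.05 in limma were 13.1%, 10.4% and 13.1%. The median log2 differences of these partners were 0.02, -0.02 and -0.01, against 0.01, -0.02 and -0.01 over all genes tested. Homer1, which joins SHANK to metabotropic glutamate receptors and has a short activity-induced form, was at 25.9 ± 4.44 FPKM in HC, 33.8 ± 4.80 in FC, and 37.0 ± 6.07 for Immo+FC (SD, n = 6, 6 and 4). The log2 difference was 0.39 for FC against HC (SE 0.12, adjusted p = 0.147) and 0.52 for Immo+FC against HC (SE 0.13, adjusted p = 0.106), and the latter passed only with the pan-neuronal score as a covariate (0.63, adjusted p = 0.0117). Dlgap4, the remaining adaptor of the family, was at 46.7 ± 2.88 FPKM in HC and 51.9 ± 2.13 in FC (SD, n = 6 each), a difference of 0.15 (SE 0.04, adjusted p = 0.132) that passed with limma's array weights (0.16, adjusted p = 0.0452). The scaffold Tanc2, at 15.2 ± 2.47 FPKM in HC and 12.3 ± 0.794 in FC (SD, n = 6 each), had a difference of -0.28 (adjusted p = 0.237), which reached -0.44 and passed without HC libraries 1 and 2 (adjusted p = 0.00948), and passed with array weights (adjusted p = 0.0411). Tanc2 also passed with array weights in Immo+FC against FC (0.42, adjusted p = 0.0476), where it was at 0.36 (adjusted p = 0.277) with equal weights. Cnksr2, a scaffold that binds PSD-95, was at 30.0 ± 2.58 FPKM in HC and 24.96 ± 2.08 in FC (SD, n = 6 each), and the difference was -0.26 (adjusted p = 0.189), which passed with array weights (-0.28, adjusted p = 0.0235). These settings raised the calls over all genes as well. In FC against HC the number rose from 2 to 500 with array weights and to 355 without HC libraries 1 and 2. It rose from 3 to 171 with array weights in Immo+FC against FC, and from 27 to 73 with the pan-neuronal score in Immo+FC against HC. Nlgn2, the neuroligin of inhibitory synapses, was at 49.9 ± 2.75 FPKM in FC (SD, n = 6) and 45.4 ± 1.28 in Immo+FC (SD, n = 4), and the difference was -0.13 (adjusted p = 0.283).

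The other CaMK and calmodulin genes also did not pass. Of 15 genes, 0 passed in each comparison (limma), and 0 higher and 1 lower, 0 and 1, and 0 and 2 had an unadjusted p under 0.05 in FC against HC, Immo+FC against FC and Immo+FC against HC. Their median log2 differences were 0.02, -0.05 and -0.02, beside 0.01, -0.02 and -0.01 for all genes. Of all genes tested, 13.1%, 10.4% and 13.1% had an unadjusted p under 0.05 in limma. Camk2d, the gene of the delta subunit, was at 59.6 ± 6.64 FPKM in HC, 61.3 ± 6.44 in FC, and 47.2 ± 7.92 for Immo+FC (SD, n = 6, 6 and 4). Its log2 difference was -0.38 for Immo+FC against FC (SE 0.10, adjusted p = 0.189) and -0.34 for Immo+FC against HC (SE 0.10, adjusted p = 0.167). Without Immo+FC library 4, whose omission also changed the call for Dlgap1, the difference from HC was -0.45 with an adjusted p of 0.0381. That omission raised the calls over all genes in Immo+FC against HC from 27 to 148. Camk2g, the gamma subunit gene, was at 37.2 ± 2.64 FPKM in HC, 35.5 ± 1.95 in FC, and 34.8 ± 1.63 for Immo+FC (SD, n = 6, 6 and 4), and none of its comparisons passed. Camk4, a nuclear CaM kinase, was at 15.8 ± 3.07 FPKM in HC and 13.1 ± 0.672 in FC (SD, n = 6 each), a difference of -0.25 (adjusted p = 0.291) that reached -0.41 and passed without HC libraries 1 and 2 (adjusted p = 0.00900). Leaving out those libraries raised the calls over all genes in FC against HC from 2 to 355.

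In blood the genes were far lower, with means of 0.466% (Dlgap1) to 3.66% (Dlg4) of the amygdala mean, although the FPKM of the tissues were computed separately. Only Dlg4, Camk2a and Camk2b had a mean of at least 0.5 FPKM, and the values were compared between groups without a test. Shank2 was listed at 0 in 1 of 14 libraries, Dlgap2 in 5 and Dlgap3 in 1. Camk2a was at 6.81, 2.81, 9.05 and 9.27 FPKM in HC blood, at 1.31, 0.5005, 1.19, 0.925 and 2.98 FPKM in FC blood and at 1.34, 1.69, 1.84, 3.43 and 0.246 FPKM in Immo+FC blood. The HC values were the higher, except that HC library 2 lay within the range of the other groups. Snap25, a vesicle fusion gene of neurons, followed the same order, at 11.7, 3.60, 14.5 and 16.5 FPKM in HC blood, against 0.142 to 4.21 FPKM in FC and 0.0747 to 4.37 FPKM in Immo+FC blood. The summed pan-neuronal markers were 17.3 to 68.7 FPKM in HC blood, 5.25 to 21.8 in FC and 3.98 to 21.5 in Immo+FC. Camk2a was 56.2 to 78.1% of Snap25 in HC blood and 59.8 to 77.5% in HC amygdala. In the other groups the shares spread more widely, at 69.2 to 352% in FC blood and 65.1 to 329% in Immo+FC blood, against 54.9 to 71.0% and 58.1 to 64.3% in amygdala. The highest shares, 352% and 329%, came from the libraries with the lowest Snap25 of their group, at 0.142 and 0.0747 FPKM, and so rest on a very low denominator.

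Dlgap3 was at 7.46 to 10.7% of Snap25 in HC blood and 6.31 to 8.32% in HC amygdala. Its share was 6.38 to 26.4% in FC blood and 0 to 14.7% in Immo+FC blood, against 6.10 to 8.46% and 6.10 to 9.17% in amygdala. The 26.4% and the 0% were those of the libraries with the lowest Snap25 of their group, at 0.142 and 0.0747 FPKM. The Dlgap3 level was 0.972, 0.386, 1.16 and 1.23 FPKM in HC blood and at most 0.269 FPKM in FC blood, without overlap. Shank1, at 0.849, 0.525, 0.772 and 1.53 FPKM in HC blood, lay above all FC (0.183 to 0.445 FPKM) and all Immo+FC libraries (0.276 to 0.464 FPKM). Dlgap1 was higher in HC than in Immo+FC blood without overlap. Of the 17530 genes with a mean above 0 in blood, 3.25% were lower without overlap in FC and 3.37% in Immo+FC than in HC. Dlg4 rose in the order of Snap25 among the HC blood libraries, but not among the FC or the Immo+FC blood libraries. It was at 6.41, 5.75, 7.57 and 8.44 FPKM in HC blood, at 4.47, 6.31, 5.81, 5.48 and 7.03 FPKM in FC, with 5.14, 6.38, 6.15, 4.19 and 6.18 FPKM in Immo+FC, which overlapped. Dlg4 was 51.2 to 160% of Snap25 in HC blood, where it was 16.9 to 20.4% in HC amygdala. Camk2b was at 2.82, 1.104, 3.44 and 3.41 FPKM in HC blood, at 0.736 to 1.75 FPKM in FC, with 1.54 to 2.38 FPKM in Immo+FC, and it was 20.6 to 30.7% of Snap25 in HC blood and 18.03 to 19.7% in HC amygdala. HC blood library 4 held 9081977 sequences, against 18552641 to 20101794 in the other HC blood libraries. It was the highest HC blood library for Snap25 and for every gene examined except Dlgap1 and Camk2b. The part of neuronal RNA in these blood values was not tested.

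**Figure D5:**
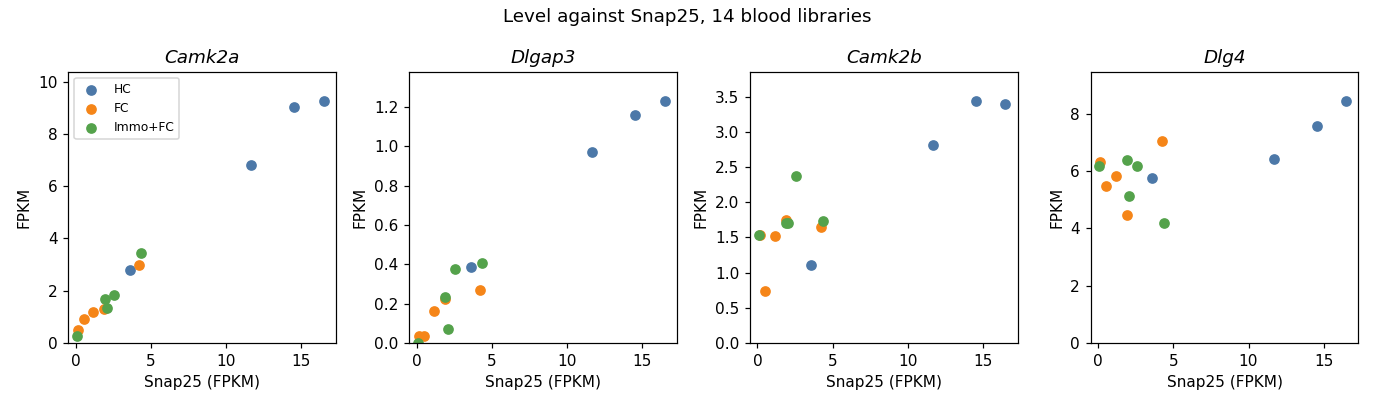
Level in FPKM of Camk2a, Dlgap3, Camk2b and Dlg4 (vertical axes, each with its own scale from 0) against Snap25 in FPKM (horizontal axes) in 14 blood libraries, with 1 point per library coloured by group. Camk2a and Dlgap3 are highest in the 3 HC libraries with Snap25 at 11.7 to 16.5 FPKM, Camk2b is at 0.736 to 2.38 FPKM in the others, and Dlg4 stays between 4.19 and 8.44 FPKM in all libraries.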

How the data were processed

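Libraries were poly-A selected, and blood RNA was depleted of globin. Per the authors, STAR 2.3 placed the reads on mm10, Cufflinks 2.1.1 assembled transcript models, and Cuffdiff 2.1.1 gave the FPKM of each sample from the merged models, in separate runs for the tissues. The deposited FPKM table has 1 value per entry and library. A second deposited table gives the counts of sequences per library and the percent mapped uniquely (91.33 to 92.3% in amygdala, 60.06 to 72.59% in blood).

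Groups came from the sample labels. For amygdala, a pseudocount of 0.1 FPKM was added, log2 was taken, and limma 3.58.1 (R 4.3.3) fitted the 3 groups together with a variance trend. The 13508 genes averaging 0.5 FPKM or more were tested, with Benjamini and Hochberg adjustment over all of them. Fold changes on this scale understate low genes. Within-library log2 ratios were compared by exact permutation (Python 3.11.15, numpy 2.4.6). Blood was described without a test. FPKM values do not carry read numbers per gene, so no counting error is given. The pools are separate by label, and p-values cover the spread between pools.

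The members and gene lists were chosen with earlier results of these data known. Genes of a list were named by the smallest unadjusted p-values per comparison, up to 4 each. The genes most like a member were ranked by Pearson's r. The fit was tested on simulated data with independent normal noise. It called 42%, 20% and 42% of genes changed by a log2 of 0.25 in FC against HC, Immo+FC against FC and Immo+FC against HC. For a log2 of 1 the shares were 94%, 96% and 94%. Small changes can therefore be missed. Alternatives were other pseudocounts, filters, scalings, weights, covariates and library sets. Drd1, Hbb-bs, Hba-a1 and Epb42 had no entry under those symbols. Of the cell type lists used as checks, the neuronal, glial, endothelial, striatal, choroid plexus, leukocyte and erythroid lists had 0 genes past the threshold in each comparison (limma; 0 to 4 per list at an unadjusted p under 0.05, the 4 being pan-neuronal genes in Immo+FC against FC), except microglial P2ry12, lower in Immo+FC than in HC (adjusted p = 0.0206).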

Additional observations from a re-analysis of the deposited data

Results flagged for a closer look

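A library that stood far from the others of its group was looked for in 54 groups of 4 to 6 libraries, and 5 were found, where chance gives about 5%. In amygdala, Dlg4 in Immo+FC library 4 was at 156 FPKM, with the other 3 at 162 to 164 FPKM, and Dlgap2 in Immo+FC library 1 was at 8.11 FPKM, with the other 3 at 12.1 to 12.4 FPKM. In blood, Shank3 in Immo+FC library 1 was at 0.148 FPKM, against 0.0412 to 0.0708 FPKM in the others. Camk2b in FC blood library 4 was at 0.736 FPKM, with the other 4 at 1.53 to 1.75 FPKM, and in Immo+FC blood library 3 it was at 2.38 FPKM, with the others at 1.54 to 1.74 FPKM.

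For 1 gene, Dlg4, every FC library lay on one side of the HC mean in amygdala and on the other side in blood. How many of all genes do so was not counted. All 6 FC amygdala libraries were above the HC amygdala mean of 166 FPKM, and all 5 FC blood libraries were below the HC blood mean of 7.04 FPKM. FC blood library 5, at 7.03 FPKM, was almost at that mean. The difference between the tissues was not tested, and the FC and HC ranges overlapped in each of them.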

How the results depend on the processing

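Of 783 values of the 9 genes under 29 alternatives in 3 comparisons, 1 changed its call, Dlgap1 in Immo+FC against HC without Immo+FC library 4 (described in the report), and 45 had the opposite sign without being called. Leaving out 1 library at a time gave 0 to 0, 0 to 0 and 0 to 1 of the 9 genes past the threshold in FC against HC, Immo+FC against FC and Immo+FC against HC. With the score of long transcripts as a covariate, Camk2a and Camk2b in Immo+FC against FC were at -0.22 and -0.14 and Dlgap2 at -0.27 (adjusted p = 0.174, 0.271 and 0.118 in limma).

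The number of all genes past the threshold was 2, 3 and 27 in the 3 comparisons and, with 1 library left out at a time, 1 to 143, 1 to 30 and 0 to 148. In FC against HC it was 143, 60 and 35 when HC library 1, 2 or 3 was omitted and 89 when Immo+FC library 1 was, and in Immo+FC against HC it was 148 without Immo+FC library 4. In FC against HC it was 1 without a filter, 500 with array weights, 1 with the long transcript score, 120 with the pan-neuronal score and 355 without HC libraries 1 and 2. In Immo+FC against FC it was 66 in a fit of only these groups, 171 with array weights, 107 with the pan-neuronal score, 121 without HC libraries 1 and 2 and 1 without Immo+FC libraries 1 and 2. In Immo+FC against HC it was 6 without a filter, 0 in a fit of only these groups, 16 with array weights, 73 with the pan-neuronal score, 2 without HC libraries 1 and 2 and 0 without Immo+FC libraries 1 and 2. The cause was not tested. With the library number as a replicate block the 3 counts were 160, 62 and 0. Libraries of the same number had correlations of -0.24 to 0.32 in their deviations. These few values cannot decide whether the numbers pair the samples, and by label the pools are separate. With the block 0 of the 9 genes passed, while the partner gene Cnksr2 did in FC against HC (-0.26, adjusted p = 0.0399 in limma).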
